A study of Tupaia belangeri chinensis with 36 samples.

Results

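Noncoding transcripts named after SOX genes made up 149 of the 76871 features in the annotation of the Chinese tree shrew used for these libraries. They were picked by name alone. Of the 149, 126 were intergenic transcripts whose names start with LINC-SOX and a number, and 23 were antisense transcripts in which a SOX gene name is followed by AS. The name says which gene the annotation ties a transcript to. It does not say that the SOX gene itself is transcribed, and positions, lengths and sequences of these transcripts were not used here, so levels are compared between samples and never between transcripts. Transcripts that share a SOX gene may also be pieces of 1 locus and are not independent of each other.

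RNA was measured in layers of the fetal cortex of Tupaia belangeri chinensis that had been cut from frozen, Nissl-stained sections by laser capture microdissection, with a library kit that isolates mRNA. The germinal layers, which hold the dividing progenitors, are the ventricular zone (VZ) and the inner and outer subventricular zones (ISVZ and OSVZ). The neuron-rich layers are the intermediate zone (IZ, migrating neurons), the cortical plate (CP, settled neurons, dissected in part as an inner portion CPi and an outer portion CPo) and the marginal zone (MZ, the layer below the brain surface). At embryonic day 28 (E28) each of the 3 germinal and the 3 neuron-rich layers had 2 libraries. The E37 set held the IZ in 3 libraries, the undivided CP in 1, and CPi, CPo and MZ in 2 each. At E42 the VZ had 1 library and the ISVZ, OSVZ, IZ, CPi, CPo and MZ had 2 each. Beyond tissue, the labels give layer and embryonic age and no strain, genotype or treatment. The library labelled E42 VZ replicate 2 held the same count as E28 VZ replicate 2 for each of the 76871 features and was left out, which leaves 35 libraries and a single one for the E42 VZ. Germinal layers of E37 were not analysed here. The study's reporting form speaks of biological replicates for its experiments in general, but nothing in the labels ties the libraries of 1 group to separate embryos, so the p-values measure the spread between these libraries, which may be technical.

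SOX proteins are transcription factors that bind DNA through an HMG box and are sorted into groups by the likeness of that box. In the developing cortex the SOXB1 factors SOX1, SOX2 and SOX3 keep progenitors in a dividing state, the SOXE factor SOX9 is found in radial glia and later in astrocytes, and SOX10 of the same group marks the oligodendrocyte lineage. The SOXC factors SOX4 and SOX11 are switched on in newborn neurons, the SOXD factor SOX5 acts in deep-layer, subcortically projecting neurons, and the SOXF factors SOX7, SOX17 and SOX18 are best known from the endothelium. Several SOX genes have long noncoding RNAs beside them or on the opposite strand. Whether counting used strand is not given in the sources used here, so reads of an antisense transcript and of the gene opposite to it cannot be told apart.

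Each library held between 17932690 and 102042743 counts on features, with a median of 31756620. The transcripts named after SOX genes took 0.00109 to 0.00966% of them, and 3 counts, the limit that a count of 0 allows, came to 0.0294 to 0.167 CPM depending on the library, CPM being counts per 1000000 counts on features. This limit covers counting error only. The median depth was 30900298 counts at E28, 25744685 at E37 and 41628512 at E42, so low transcripts were best measured at E42. The protein-coding features of these files carry identifiers without gene symbols, and none of the 76871 names occurred in the reference gene table. The layers could therefore be checked only through other noncoding transcripts with a marker gene in their name. RELN-AS-5, named after the reelin gene of Cajal-Retzius cells, lay at 1.88 and 0.662 CPM in the E28 MZ and at 0 in the IZ and CP of that stage. PAX6-AS-1, named after a progenitor factor, lay at 2.14 and 0.915 CPM in the E28 VZ and at 0 in the IZ, CP and MZ. The check was not uniform. Of the 6 tested transcripts named after genes of Cajal-Retzius cells, RELN-AS-5 was the 1 called higher in the E28 MZ than in the IZ and CP, while LINC-TP73-1 lay at 5.92 and 7.37 CPM in the MZ and 7.30 and 5.87 in the CP, and CALB2-AS-2 was at 0 in both MZ libraries. Of the 38 tested transcripts named after progenitor genes, 17 were higher and 1 was lower in the E28 germinal than in the neuron-rich layers. Beside them stand 18.5% of all features called higher and 17.1% called lower. Most of the 17 carry the name of a single gene, POU3F3, and may be pieces of 1 locus. The lower one, LINC-POU3F1-1, lay at 0.893 and 1.21 CPM in the VZ and 30.0 and 27.4 in the IZ. The 5 transcripts named here were chosen for the check after their values were seen.

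Of the 149 transcripts, 44 passed the filter on low counts, which is 29.5%, against 34.9% of all features and 19.6% of the 55828 features without a TSDBGID identifier, the kind of name that the other 21043 features carry. Of those 55828, 31776 have a LINC and 22595 an AS name, and they serve as the background nearest in kind. The 44 were 33 intergenic and 11 antisense transcripts. A further 42 had no count in any library and 49 had between 1 and 20 counts over all 35 libraries. The 3 with most counts among those that did not pass were LINC-SOX5-1 with 47, LINC-SOX11-15 with 45 and LINC-SOX4-12 with 45. By SOX gene, 7 of 8 transcripts of SOX1, 6 of 8 of SOX2, 3 of 3 of SOX10 and 9 of 34 of SOX11 passed. So did 6 of 13 of SOX5, 5 of 11 of SOX4, 3 of 16 of SOX9, 2 of 19 of SOX6, 2 of 12 of SOX17 and 1 of 3 of SOX30. None passed for SOX3, SOX7, SOX13, SOX14, SOX18 or SOX21, where the totals over all libraries were 3, 23, 1, 6, 0 and 4 counts. Of the 44, 6 reached the filter's level of 0.315 CPM in a single library.

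Of the 44 transcripts, 31 differed in at least 1 of 18 comparisons of layers or stages (edgeR quasi-likelihood test, Benjamini-Hochberg adjusted p under 0.05 over all 26858 features tested). How many of all features differed in at least 1 was not counted, so the 31 are not read as a trait of these transcripts. Among the 13 that differed in none, the 3 with most counts were LINC-SOX4-1 with 255, SOX5-AS-1 with 211 and LINC-SOX10-2 with 183. Among all E28 layers 19 transcripts differed, 43.2% of the 44, beside 37.8% of all features tested and 13.9% of those without a TSDBGID identifier. Among all E42 layers 17 differed, 38.6%, beside 33.9% and 8.81%. LINC-SOX11-27 was called among the E42 layers alone, where ISVZ replicate 2 held 38 counts of it, the most of any library. It reached the level of the low-count filter in the E42 ISVZ and OSVZ alone, so its call, counted among the 17, carries no weight. Without each library in turn 15 of the 19 and 12 of the 17 calls were kept. At E28 LINC-SOX11-22 was lost without any of 6 libraries (adjusted p = 0.0559 to 0.0710), LINC-SOX11-29 without either VZ library (0.0710 and 0.0801), LINC-SOX2-2 without ISVZ replicate 1 (0.0540) and SOX5-AS-6 without CP replicate 1 (0.0526). At E42 LINC-SOX11-27 was lost without any of 5 libraries (0.0518 to 0.0993), LINC-SOX11-29 without any of 10 (0.0512 to 0.108), SOX10-AS-1 without any of 11 (0.0539 to 0.144), SOX5-AS-7 without any of 6 (0.0553 to 0.122) and SOX5-AS-6 without CPi replicate 1 (0.0739). With the replicate number as a block LINC-SOX11-20 was also called among the E28 layers (adjusted p = 0.0116, 0.376 without the block). The map of 30 transcripts over 18 layers and stages shows 3 broad arrangements: transcripts of SOX1, SOX2 and SOX9 high in the germinal layers, transcripts of SOX4, SOX5 and SOX17 and 1 of SOX11 high in neuron-rich layers, and 2 of the 3 transcripts of SOX10, which were highest at E42. Bulk layers cannot tell fewer cells of a type from less RNA in each cell.

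**Figure D1:**
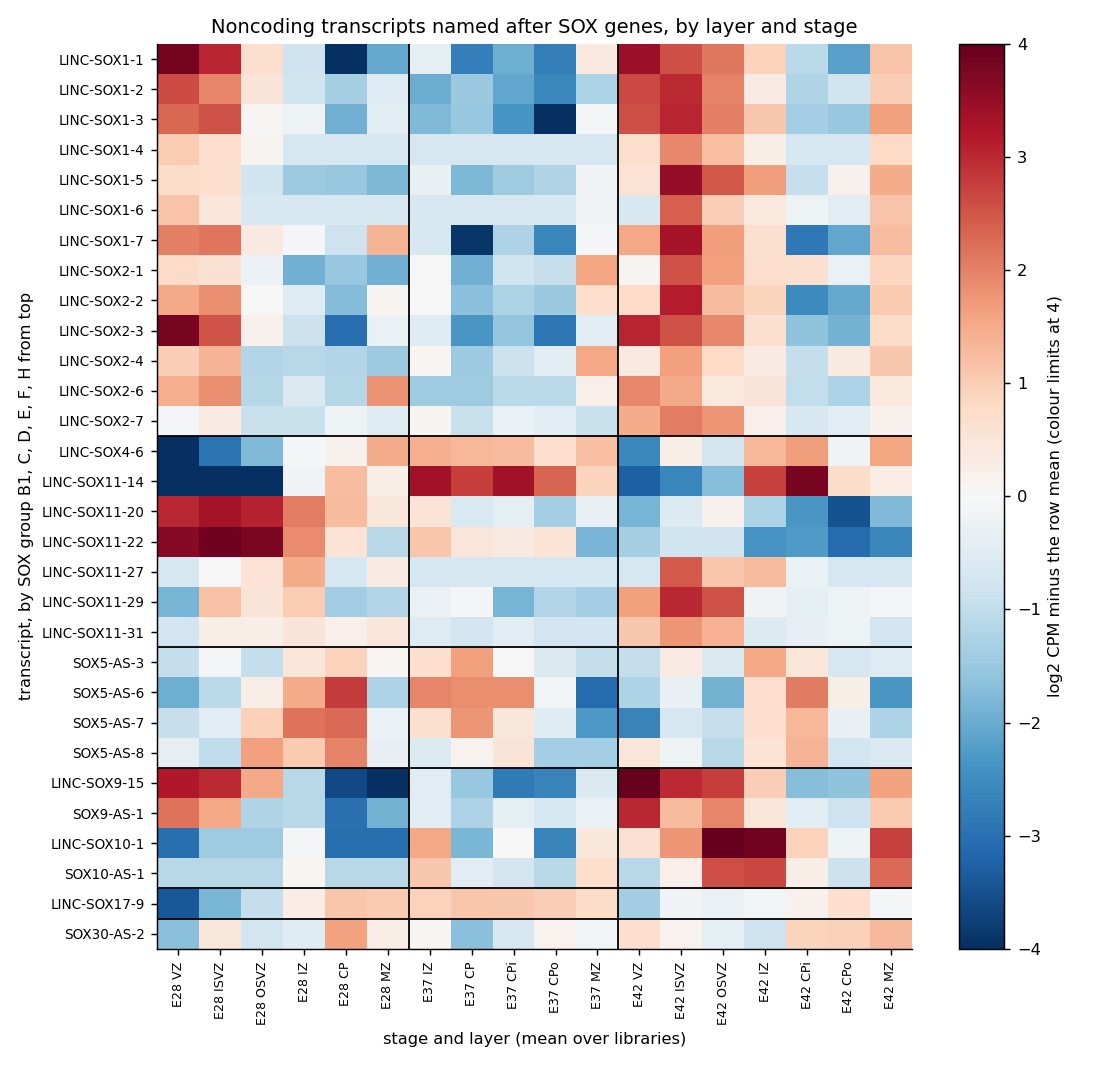
Each row is 1 of the 30 noncoding transcripts named after SOX genes that the naming rule selected, each column 1 of the 18 layers and stages, and the colour is the mean log2 CPM of the group minus the mean of the row, with colours ending at 4 log2 units either way. LINC-SOX1-1 and LINC-SOX9-15 are highest in the VZ columns, LINC-SOX11-14 in the IZ and plate columns of E37 and the IZ and CPi columns of E42, and LINC-SOX10-1 in the E42 OSVZ and IZ columns.

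Transcripts named after SOX1, SOX2 and SOX9 were higher in the germinal layers. At E28, 20 of the 44 differed between the mean of the germinal layers and the mean of the neuron-rich layers, beside 35.7% of all features and 16.6% of those without a TSDBGID identifier. Of these, 13 were higher in the germinal layers, beside 18.5% of all features called in that direction, and 7 were lower, beside 17.1%. The 13 were 6 of 7 tested transcripts of SOX1, 4 of 6 of SOX2, 2 of 3 of SOX9 and 1 of 9 of SOX11. At E42, 14 differed, beside 30.1% of all features and 12.1% of those without such an identifier: 12 were higher in the germinal layers, beside 15.6%, and 2 were lower, beside 14.4%. The 12 were 4 transcripts of SOX1, 3 of SOX2, 2 of SOX9 and 3 of SOX11. The median of the 44 differences was 0.31 on the log2 scale at E28 and 0.66 at E42, where the medians of all features were -0.03 and 0.09.

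The E28 libraries of LINC-SOX1-1 lay at 18.0 and 20.1 CPM in the VZ, 12.3 and 9.90 in the ISVZ, 2.50 and 1.74 in the OSVZ, 0.838 and 0.587 in the IZ, 0.0410 and 0 in the CP and 0.667 and 0.0882 in the MZ. The 6 germinal libraries and the 6 neuron-rich ones did not overlap. Their means were 10.7 and 0.370 CPM, a ratio of 29.0, and the fitted log2 difference was 5.41 (SE 0.39, adjusted p = 1.26e-12, edgeR). Here and below, ratios and folds are of mean CPM and log2 differences are fitted on the log scale, so the 2 need not match. At E42 it lay at 14.3 CPM in the VZ library, 6.98 and 9.26 in the ISVZ, 4.25 and 7.74 in the OSVZ, 2.25 and 2.82 in the IZ, 0.548 and 0.602 in the CPi, 0.284 and 0.206 in the CPo and 3.57 and 2.36 in the MZ. The germinal mean was 4.81 times the neuron-rich mean there (log2 difference 2.64, SE 0.30, adjusted p = 2.81e-08), again without overlap.

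LINC-SOX9-15 was found in all 3 germinal layers of E28 and had no count in the MZ. It lay at 9.25 and 10.5 CPM in the E28 VZ, 9.30 and 7.80 in the ISVZ, 2.01 and 4.72 in the OSVZ, 0.645 and 0.311 in the IZ and 0.0820 and 0 in the CP, and it was at 0 in both MZ libraries. The germinal mean was 7.27 CPM and the neuron-rich mean 0.173, a ratio of 42.0 (adjusted p = 1.74e-11). With a layer at 0 the fitted log2 difference depends on the prior count and is not given. At E42 it lay at 19.6 CPM in the VZ, 10.0 and 7.35 in the ISVZ, 8.97 and 6.12 in the OSVZ, 2.17 and 2.04 in the IZ, 2.82 and 3.81 in the MZ, and between 0.217 and 0.386 in the 4 CPi and CPo libraries. Germinal and neuron-rich libraries did not overlap at E42 either, with a ratio of means of 6.26 (log2 difference 3.09, SE 0.37, adjusted p = 1.29e-07).

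SOX9-AS-1, an antisense transcript of the same gene, lay at 10.4 and 18.3 CPM in the E28 VZ, 6.63 and 12.5 in the ISVZ and 1.73 and 0.955 in the OSVZ, against 0.246 to 1.5 in the 6 neuron-rich libraries. The OSVZ values reached into the range of the neuron-rich layers. The ratio of the germinal to the neuron-rich mean was 9.41 (log2 difference 2.88, SE 0.35, adjusted p = 5.69e-08). At E42 it was at 25.1 CPM in the VZ, 8.80 and 6.18 in the ISVZ, 11.4 and 12.7 in the OSVZ and 1.16 to 6.42 in the 8 neuron-rich libraries, a ratio of 3.55 (log2 difference 1.79, SE 0.31, adjusted p = 3.56e-05).

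LINC-SOX2-3 was the SOX2 transcript with the largest ratio at E28 for which both sides had counts in each layer. Its E28 libraries lay at 8.07 and 9.77 CPM in the VZ, 2.74 and 4.72 in the ISVZ, 0.550 and 0.810 in the OSVZ and 0 to 0.940 in the 6 neuron-rich libraries. The VZ and ISVZ stood clear of the neuron-rich layers and the OSVZ did not. The ratio of means was 14.6 (log2 difference 3.93, SE 0.50, adjusted p = 1.32e-07). At E42 the 5 germinal libraries lay at 2.32 to 5.21 CPM and the 8 neuron-rich ones at 0.0772 to 1.86, without overlap, a ratio of 4.93 (log2 difference 2.70, SE 0.42, adjusted p = 6.48e-06).

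**Figure D2:**
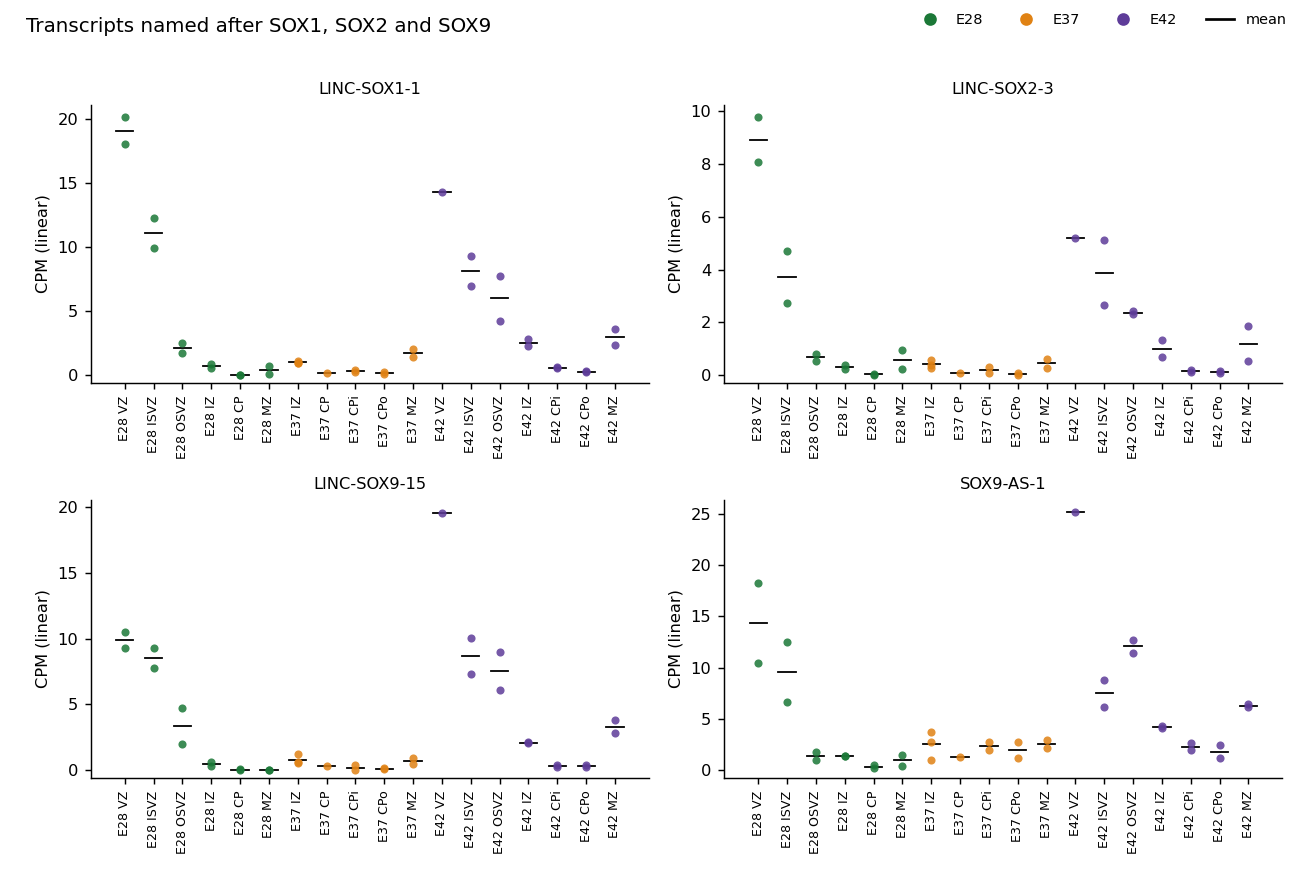
CPM on a linear axis for LINC-SOX1-1, LINC-SOX2-3, LINC-SOX9-15 and SOX9-AS-1 in each library (points) with the group mean (bar), for 18 layers and stages, coloured by embryonic day. Each panel has its own scale. The VZ libraries are the highest of E28 in all 4 panels save that E28 VZ and ISVZ overlap for LINC-SOX9-15 and SOX9-AS-1, and CP libraries lie near the bottom.

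The other transcripts of SOX1 and SOX2 that were higher in the germinal layers had smaller ratios or few counts. LINC-SOX1-3 lay at 1.16 to 13.5 CPM in the E28 germinal libraries and 0.352 to 2.64 in the neuron-rich ones (ratio 5.88), and at 5.26 to 17.2 against 0.360 to 5.31 at E42 (ratio 3.34). LINC-SOX1-2 lay at 0.550 to 3.14 against 0.0441 to 0.971 CPM at E28 (ratio 5.91) and at 1.12 to 4.08 against 0.129 to 0.917 at E42 (ratio 5.26). For both, libraries of the 2 sides overlapped at E28, where the OSVZ was low.

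LINC-SOX1-7, LINC-SOX2-2, LINC-SOX1-3 and LINC-SOX2-4 had their highest mean in the ISVZ at both stages, although VZ and ISVZ libraries overlapped at E28. LINC-SOX1-3 lay at 13.5 and 7.28 CPM in the E28 ISVZ against 8.45 and 8.24 in the VZ. At E42 it lay at 11.6 and 17.2 CPM in the ISVZ against 10.1 in the VZ library. LINC-SOX2-2 lay at 10.9 and 2.83 CPM in the E28 ISVZ and at 14.2 and 13.2 in the E42 ISVZ, against 2.58 in the E42 VZ library and 1.62 and 8.14 in the E42 OSVZ. Germinal and neuron-rich means of LINC-SOX2-2 differed 3.88-fold at E28 and 3.35-fold at E42. LINC-SOX1-7 lay at 5.26 and 2.47 CPM in the E28 ISVZ and at 7.07 and 9.96 in the E42 ISVZ, with ratios of the germinal to the neuron-rich mean of 2.53 and 4.10. The excess of the ISVZ over the VZ was not tested.

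LINC-SOX1-5, LINC-SOX1-4, LINC-SOX2-1 and LINC-SOX2-4 were called higher in the E28 germinal layers from 41, 20, 53 and 43 counts in the 6 germinal libraries, against 2, 0, 1 and 2 in the neuron-rich ones. The mean levels in the germinal layers were 0.202, 0.104, 0.268 and 0.231 CPM. At E42 LINC-SOX2-7 was called from 65 against 19 counts (0.319 and 0.0508 CPM), LINC-SOX11-29 from 261 against 58 (1.14 and 0.154 CPM) and LINC-SOX11-31 from 51 against 7 (0.235 and 0.0132 CPM). LINC-SOX11-31 reached the level of the low-count filter in the E42 ISVZ and OSVZ alone. It was thus tested only because it was high there, and its call carries no weight, though it is counted among those higher at E42.

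Of the 20 calls at E28, 14 were kept when any 1 of the 12 libraries was left out. LINC-SOX1-4 was lost without ISVZ replicate 1 (adjusted p = 0.0547) or OSVZ replicate 1, after which the OSVZ held no count of it, and LINC-SOX2-4 without any of 5 libraries (adjusted p = 0.0525 to 1), the others being transcripts of SOX5 and SOX30 described below. Of the 14 calls at E42, 11 were kept without each library. LINC-SOX11-31 was lost without MZ replicate 1 (adjusted p = 0.0722), LINC-SOX11-22 without any of 8 libraries (adjusted p = 0.0517 to 0.136) and LINC-SOX2-7 without any of 10 (adjusted p = 0.0618 to 0.131). With the replicate block LINC-SOX11-19 was also called higher in the E28 germinal layers (adjusted p = 0.0462, 0.0588 without it).

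Within the E28 germinal layers, 4 transcripts of SOX1, SOX2 and SOX9 were lower in the OSVZ than in the ISVZ, and 3 of them were also higher in the VZ than in the subventricular zones. Between OSVZ and ISVZ 4 of 44 differed, beside 8.94% of all features and 1.31% of those without a TSDBGID identifier, and all 4 were lower in the OSVZ, beside 5.16% of all features. LINC-SOX1-1 was at 2.12 CPM in the OSVZ and 11.1 in the ISVZ (means of 2 libraries each), 5.22-fold lower (log2 difference -2.38, SE 0.51, adjusted p = 0.0022). SOX9-AS-1 was 7.11-fold lower (adjusted p = 0.00126), LINC-SOX1-3 5.60-fold (adjusted p = 0.0270) and LINC-SOX2-3 5.48-fold (adjusted p = 0.0297). None of the 4 overlapped between the 2 layers, but the share of all features without overlap was not counted, so nothing is drawn from this. With the replicate number as a block, LINC-SOX1-7 (adjusted p = 0.0255, 0.0583 without the block) and LINC-SOX2-2 (0.0331, 0.204 without it) were also called lower. None of the 4 calls was kept in each fit that left out 1 library: without OSVZ replicate 2 the adjusted p was 0.0678 for LINC-SOX1-1, 0.0558 for SOX9-AS-1, 0.292 for LINC-SOX1-3 and 0.135 for LINC-SOX2-3. LINC-SOX1-3 was lost also without ISVZ replicate 1 (0.204) or OSVZ replicate 1 (0.0578), and LINC-SOX2-3 without ISVZ replicate 2 (0.210) or OSVZ replicate 1 (0.228).

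Between the E28 VZ and the mean of ISVZ and OSVZ 7 of 44 differed, beside 12.7% of all features and 2.80% of those without a TSDBGID identifier. LINC-SOX1-1 (2.89-fold), LINC-SOX2-3 (4.05-fold) and SOX9-AS-1 (2.63-fold) were higher in the VZ, beside 6.53% of all features in that direction. LINC-SOX17-9, LINC-SOX4-6, LINC-SOX11-29 and LINC-SOX10-1 were lower there, beside 6.21%, and the last 3 had no count in either VZ library. LINC-SOX17-9 lay at 0.0638 and 0.0742 CPM in the VZ and at 0.252 to 0.660 in the 4 subventricular libraries. The 4 subventricular libraries together held 24 counts of LINC-SOX4-6, 42 of LINC-SOX11-29 and 15 of LINC-SOX10-1. LINC-SOX1-1 and LINC-SOX2-3 kept their calls without each library. Without VZ replicate 2 the adjusted p of SOX9-AS-1 was 0.0869, that of LINC-SOX17-9 0.0729, that of LINC-SOX4-6 0.0970, that of LINC-SOX11-29 0.211 and that of LINC-SOX10-1 0.224. Without VZ replicate 1 the last 4 were lost as well (adjusted p = 0.0767, 0.0640, 0.174 and 0.166). LINC-SOX11-29 was lost without OSVZ replicate 2 (0.0501) and LINC-SOX10-1 without any of the 6 libraries and with the replicate block (adjusted p = 0.0588).

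The E42 VZ, with 1 library, was given no comparison of its own with the other germinal layers. Between OSVZ and ISVZ at E42 LINC-SOX10-1 was the 1 transcript called of 44, beside 0.774% of all features and 0.477% in that direction, and it is described with the other SOX10 transcripts. LINC-SOX1-1 lay at 4.25 and 7.74 CPM in the E42 OSVZ and at 6.98 and 9.26 in the ISVZ, which overlap, and SOX9-AS-1 was at 11.4 and 12.7 CPM in the OSVZ, above 8.80 and 6.18 in the ISVZ. Whether the difference between OSVZ and ISVZ changed from E28 to E42 was not tested.

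The transcripts that were lower in the germinal layers were named after SOX4, SOX5, SOX11, SOX17 and SOX30. LINC-SOX11-14 stood out by its size. It had 2 counts in the 6 germinal libraries of E28, and lay at 0.870 and 2.49 CPM in the IZ, 1.72 and 9.12 in the CP and 1.55 and 2.47 in the MZ. The neuron-rich mean was 3.04 CPM and the germinal mean 0.0106 CPM, below the limit that 3 counts set (adjusted p = 3.11e-10). At E42 the 5 germinal libraries lay at 0.118 to 0.657 CPM, while the neuron-rich ones were at 8.24 and 15.2 in the IZ, 21.3 and 26.4 in the CPi, 2.77 and 2.83 in the CPo and 2.23 and 1.83 in the MZ. The neuron-rich mean was 32.4 times the germinal mean at E42 (log2 difference -4.60, SE 0.51, adjusted p = 9.04e-08). Germinal and neuron-rich libraries did not overlap at either stage. Its E37 libraries lay at 12.2, 14.0 and 30.9 CPM in the IZ, 11.4 in the CP, 17.2 and 17.9 in the CPi, 6.55 and 11.1 in the CPo and 2.61 and 3.75 in the MZ.

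The contrast between inner and outer plate was added after these values had been seen. At E42 LINC-SOX11-14 was the 1 transcript of 44 called between CPi and CPo, beside 0.655% of all features and 0.465% in that direction, at means of 23.9 and 2.80 CPM, a ratio of 8.53 (log2 difference 3.09, SE 0.63, adjusted p = 0.0140). The call was lost without CPi replicate 1 (adjusted p = 0.0548), CPi replicate 2 (0.103), CPo replicate 1 (0.221) or CPo replicate 2 (0.348). At E37 no transcript was called by edgeR or DESeq2, beside 0.0186% of all features, and 5 had an unadjusted p under 0.05.

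LINC-SOX4-6 was absent from both E28 VZ libraries and reached 0.358 CPM at most in the ISVZ and OSVZ, against 0.902 and 0.967 in the IZ, 0.779 and 1.57 in the CP and 3.28 and 2.56 in the MZ. The neuron-rich mean was 14.5 times the germinal mean (adjusted p = 4.43e-09) with no overlap. At E42 it lay at 0.118 to 1.33 CPM in the germinal libraries and 0.746 to 4.49 in the neuron-rich ones, a ratio of 4.36 (log2 difference -2.51, SE 0.43, adjusted p = 3.51e-05), and the ranges overlapped.

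LINC-SOX17-9 increased from the VZ to the plate at E28. It lay at 0.0638 and 0.0742 CPM in the VZ, 0.252 and 0.396 in the ISVZ, 0.660 and 0.579 in the OSVZ, 1.32 and 1.83 in the IZ, 3.16 and 2.52 in the CP and 2.34 and 3.09 in the MZ. The neuron-rich mean was 7.04 times the germinal mean (log2 difference -3.22, SE 0.36, adjusted p = 1.40e-08) with no overlap. At E42 the germinal libraries had 0.444 to 1.69 CPM and the neuron-rich ones 0.926 to 2.63, and no difference was called. The noncoding transcripts tested here and named after endothelial genes, 5 in number, summed to 0.0495 to 0.0638 CPM in the E28 VZ, 0 to 0.289 in the ISVZ and OSVZ and 0.258 to 1.27 in the neuron-rich layers. Their part in the levels of LINC-SOX17-9 was not tested.

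Of the 6 tested transcripts of SOX5, 3 were lower in the germinal layers at E28 and 0 at E42. SOX5-AS-6 lay at 4.59 and 2.43 CPM in the E28 CP, 2.26 and 0.760 in the IZ and 0.698 and 0 in the MZ, against 0 to 0.770 in the germinal libraries. The ratio of the neuron-rich to the germinal mean was 5.62 (log2 difference -2.28, SE 0.68, adjusted p = 0.00919), with overlap. SOX5-AS-7 lay at 4.96 and 1.38 CPM in the E28 CP, 3.26 and 1.83 in the IZ and 0.334 and 0.485 in the MZ, against 0.0914 to 1.05, a ratio of 3.36 (adjusted p = 0.0278), with overlap. SOX5-AS-3 was called lower in the germinal layers from 3 counts against 25, and SOX30-AS-2 from 16 against 56. None of these 4 calls was kept in each fit that left out 1 library. SOX5-AS-6 was lost without MZ replicate 1 (adjusted p = 0.965), which left the MZ without a count, and SOX5-AS-7 without any of 8 libraries (adjusted p = 0.0533 to 0.131). SOX5-AS-3 and SOX30-AS-2 were lost without any of 7 libraries each (adjusted p = 0.0504 to 1 and 0.0588 to 1).

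At E37 SOX5-AS-6 lay at 2.44, 1.76 and 1.43 CPM in the IZ, 1.72 in the CP, 2.70 and 1.07 in the CPi and 0.538 and 0.286 in the CPo, and it had no count in either MZ library. At E42 it was at 2.22 and 1.78 CPM in the CPi, above 0.426 and 0.618 in the CPo, 0.808 and 0.642 in the IZ and 0.105 and 0 in the MZ. SOX5-AS-7 followed with 1.17 and 1.57 CPM in the E42 CPi, 0.443 and 0.360 in the CPo and 0.105 and 0.290 in the MZ. The libraries of the CPi lay above those of the CPo in both, and the difference did not pass the test.

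**Figure D3:**
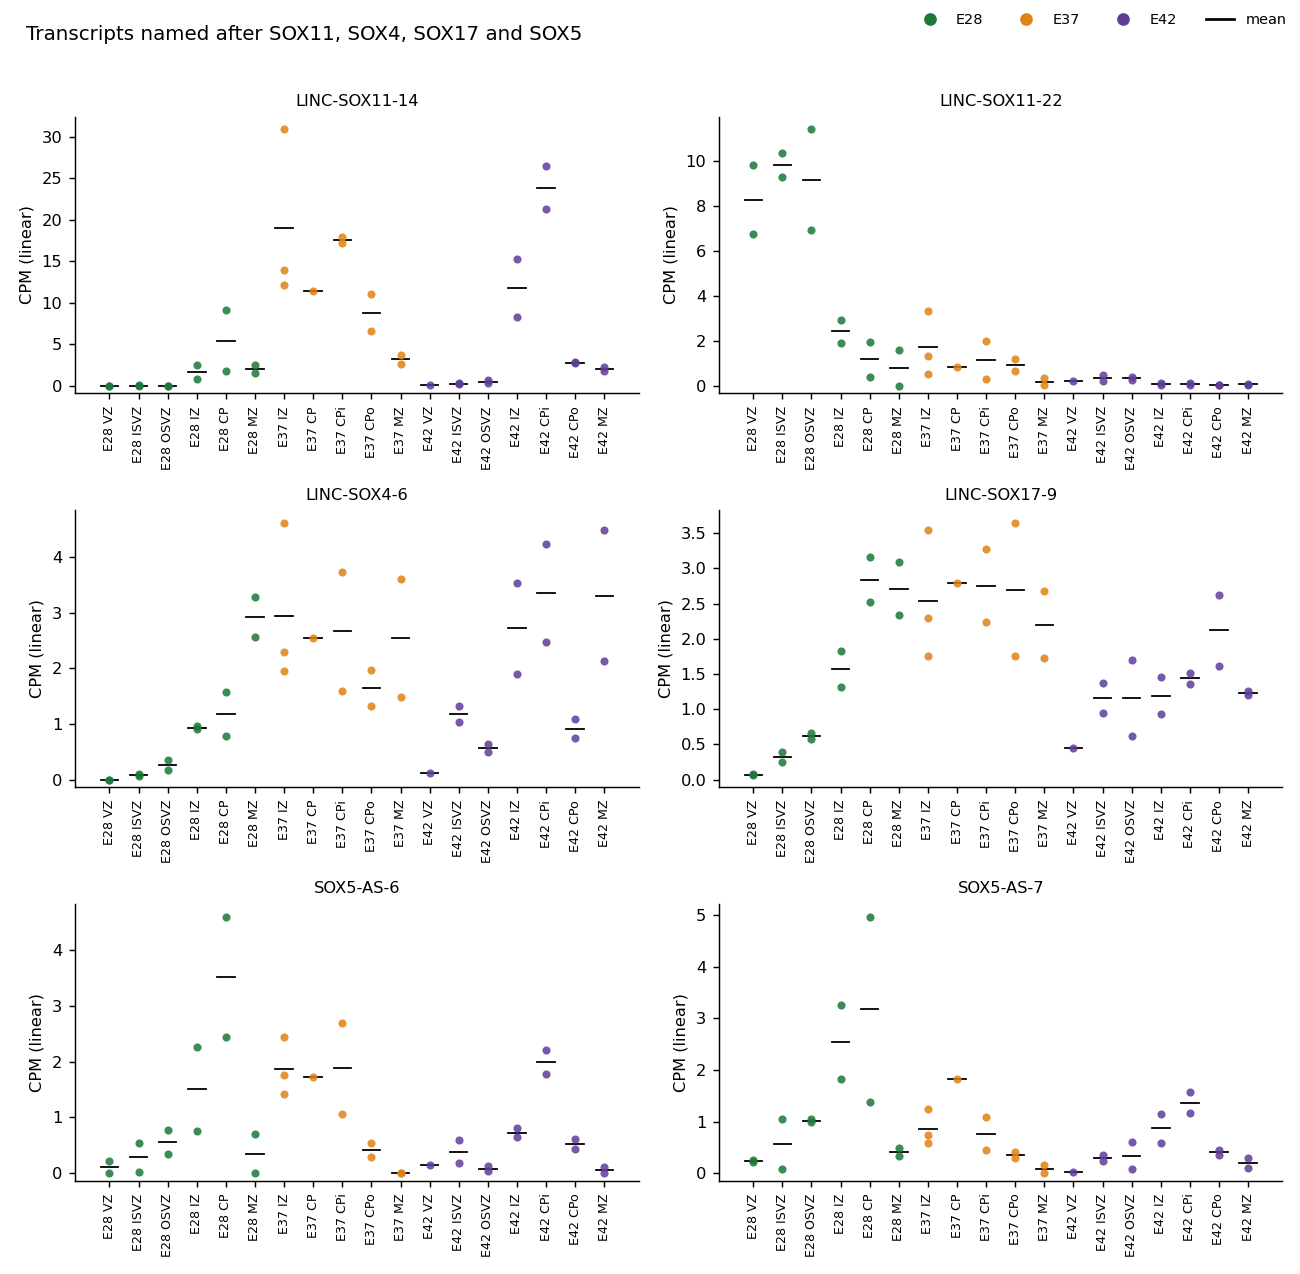
CPM on a linear axis for LINC-SOX11-14, LINC-SOX11-22, LINC-SOX4-6, LINC-SOX17-9, SOX5-AS-6 and SOX5-AS-7 in each library (points) with the group mean (bar), over 18 layers and stages, coloured by embryonic day. Each panel has its own scale. LINC-SOX11-14 is near 0 in all germinal layers and at 21.3 and 26.4 CPM in the E42 CPi, while LINC-SOX11-22 is at 6.75 to 11.4 CPM in the E28 germinal layers and under 0.5 CPM throughout E42.

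Unlike LINC-SOX11-14, LINC-SOX11-20 and LINC-SOX11-22 had their highest levels in the E28 germinal layers and were low at E42. LINC-SOX11-22 lay at 9.83 and 6.75 CPM in the E28 VZ, 10.3 and 9.32 in the ISVZ and 11.4 and 6.95 in the OSVZ, against 0 to 2.94 in the neuron-rich libraries, a ratio of 6.22 without overlap (log2 difference 2.80, SE 0.65, adjusted p = 0.00145). LINC-SOX11-20 lay at 8.34 to 10.8 CPM in the 6 E28 germinal libraries and 0.425 to 5.36 in the 6 neuron-rich ones, also without overlap. It was not called between the 2 sides (adjusted p = 0.0516), and it was called with the replicate number as a block (log2 difference 1.76, adjusted p = 4.621e-04). Both transcripts were spread evenly over VZ, ISVZ and OSVZ at E28.

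From E28 to E42 LINC-SOX11-22 fell in the subventricular zones from 6.95 to 11.4 CPM to 0.216 to 0.466 CPM, 28.3-fold (log2 difference -4.81, SE 0.88, adjusted p = 3.49e-04). LINC-SOX11-20 fell there from 8.68 to 10.8 CPM to 0.645 to 1.29 CPM, 10.8-fold (log2 difference -3.47, SE 0.79, adjusted p = 0.00284). In the neuron-rich layers LINC-SOX11-22 fell 23.6-fold from E28 to E42 and 15.7-fold from E37 to E42, and LINC-SOX11-20 fell 12.9-fold and 4.95-fold. The VZ libraries followed the same order, at 6.75 to 9.83 CPM of LINC-SOX11-22 at E28 and 0.207 in the E42 library. The E28 to E42 fall of LINC-SOX11-22 in the neuron-rich layers could not be called without MZ replicate 2 of E28, since the other MZ library had no count. From E37 to E42 the adjusted p of LINC-SOX11-22 was 0.248 without E37 MZ replicate 2, and that of LINC-SOX11-20 0.0863 without E37 MZ replicate 3. Between E37 and E28 LINC-SOX11-20 was called lower with the replicate block only (adjusted p = 0.00104, 0.0791 without it).

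Of the 3 transcripts named after SOX10, LINC-SOX10-1 and SOX10-AS-1 had their highest means in the OSVZ and IZ of E42, and LINC-SOX10-2 did not. LINC-SOX10-1 had no count in the E28 VZ, CP and MZ, 0.108 to 0.122 CPM in the 4 subventricular libraries and 0.451 and 0.311 in the IZ. At E37 it lay at 1.07, 2.56 and 0.778 CPM in the IZ, 0.278 and 1.13 in the MZ and 0 to 0.432 in the 5 plate libraries. At E42 it was highest in the OSVZ with 16.2 and 8.86 CPM, followed by the IZ with 4.37 and 10.1, the MZ with 2.33 and 3.91, the ISVZ with 2.30 and 0.985, the CPi with 0.477 and 1.40, the VZ with 0.652 and the CPo with 0.355 and 0.335. OSVZ and IZ libraries overlapped, and the lower MZ library stood just above the higher ISVZ library.

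LINC-SOX10-1 rose in the subventricular zones from a mean of 0.114 CPM at E28 to 7.10 CPM at E42, 62.3-fold (log2 difference 5.27, SE 0.60, adjusted p = 3.90e-07), with no overlap. In the neuron-rich layers the means were 0.127 CPM at E28, 0.785 at E37 and 3.66 at E42. The rise was 4.66-fold from E37 to E42 (log2 difference 2.33, SE 0.38, adjusted p = 1.08e-04) and 28.8-fold from E28 to E42 (adjusted p = 1.08e-08). The rise from E28 to E37 (6.18-fold, adjusted p = 2.94e-04) was lost without CPo replicate 3 of E37, since the other CPo library had no count.

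Between E42 OSVZ and ISVZ LINC-SOX10-1 differed 7.64-fold (log2 difference 2.93, SE 0.70, adjusted p = 0.0422). This call was lost without ISVZ replicate 1 (0.152), ISVZ replicate 2 (0.660), OSVZ replicate 1 (0.304) or OSVZ replicate 2 (0.0526), although the 2 layers did not overlap. Between IZ and CP it was higher in the IZ at each stage. At E28 the IZ held 23 counts and the CP none, so the IZ mean of 0.381 CPM was at least 3.73-fold higher than the limit set by 3 counts over the CP (adjusted p = 0.00625, 0.113 without CP replicate 2 and 0.162 with only the IZ and CP libraries of E28 in the fit). At E37 the ratio was 7.98 (log2 difference 3.99, SE 0.63, adjusted p = 2.21e-04) and at E42 11.3 (log2 difference 3.66, SE 0.57, adjusted p = 7.34e-05). The fitted E37 difference is larger than the ratio of mean CPM gives, with the CPo libraries at 0 and 0.0357 CPM.

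SOX10-AS-1 was at 0 in the 10 E28 libraries outside the IZ, 0.129 and 0.0345 CPM in the E28 IZ, and 0.146, 0.168 and 0.346 in the E37 IZ. The E37 MZ libraries were at 0 and 0.655 CPM, the latter the highest library of that stage. At E42 it lay at 0.425 and 1.07 CPM in the OSVZ, 0.729 and 0.754 in the IZ, 0.364 and 0.772 in the MZ, 0.216 and 0.0179 in the ISVZ and 0 in the VZ. It was called higher at E42 than at E28 in the subventricular zones from 64 against 0 counts, at least 4.69-fold higher than the limit set by 3 counts (adjusted p = 0.00566, and 0.0788 without E42 ISVZ replicate 1). In the neuron-rich layers it rose 16.8-fold from E28 to E42 (adjusted p = 0.00748), which could not be called without E42 CPo replicate 2 as the other CPo library had no count. Between IZ and CP at E42 it was 11.2-fold higher in the IZ (adjusted p = 0.0367), a call lost without any of 5 of the 6 libraries (adjusted p = 0.0607 to 0.162). LINC-SOX10-2 did not follow: it had 183 counts in all, spread over 31 libraries, was highest in E28 OSVZ replicate 1 (0.660 CPM), and passed no test.

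Other noncoding transcripts of the oligodendrocyte lineage had a like distribution at E42. OLIG2-AS-1, named after a factor of the oligodendrocyte lineage, lay at 3.48 and 2.46 CPM in the E42 OSVZ and 1.99 and 2.51 in the IZ, 1.10 and 0.917 in the MZ and 0.474 in the VZ. Unlike LINC-SOX10-1 it was present at E28, at 0.505 and 0.761 CPM in the ISVZ and at 0 in the IZ, CP and MZ. NKX2-2-AS-1, named after another factor of the lineage and chosen after its values were seen, lay at 0.580 and 0.846 CPM in the E42 OSVZ and 1.22 and 1.14 in the IZ. Over the 5 tested transcripts named after oligodendrocyte genes, 4 were higher in the subventricular zones at E42 than at E28 and none lower. Beside them stand 12.5% of all features called higher and 9.64% called lower. Their summed level was 0.110 to 0.761 CPM in the E28 ISVZ and OSVZ, 1.29 to 1.90 in the E42 ISVZ and 4.23 to 4.64 in the E42 OSVZ. The part of this lineage in the levels of LINC-SOX10-1 was not tested.

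**Figure D4:**
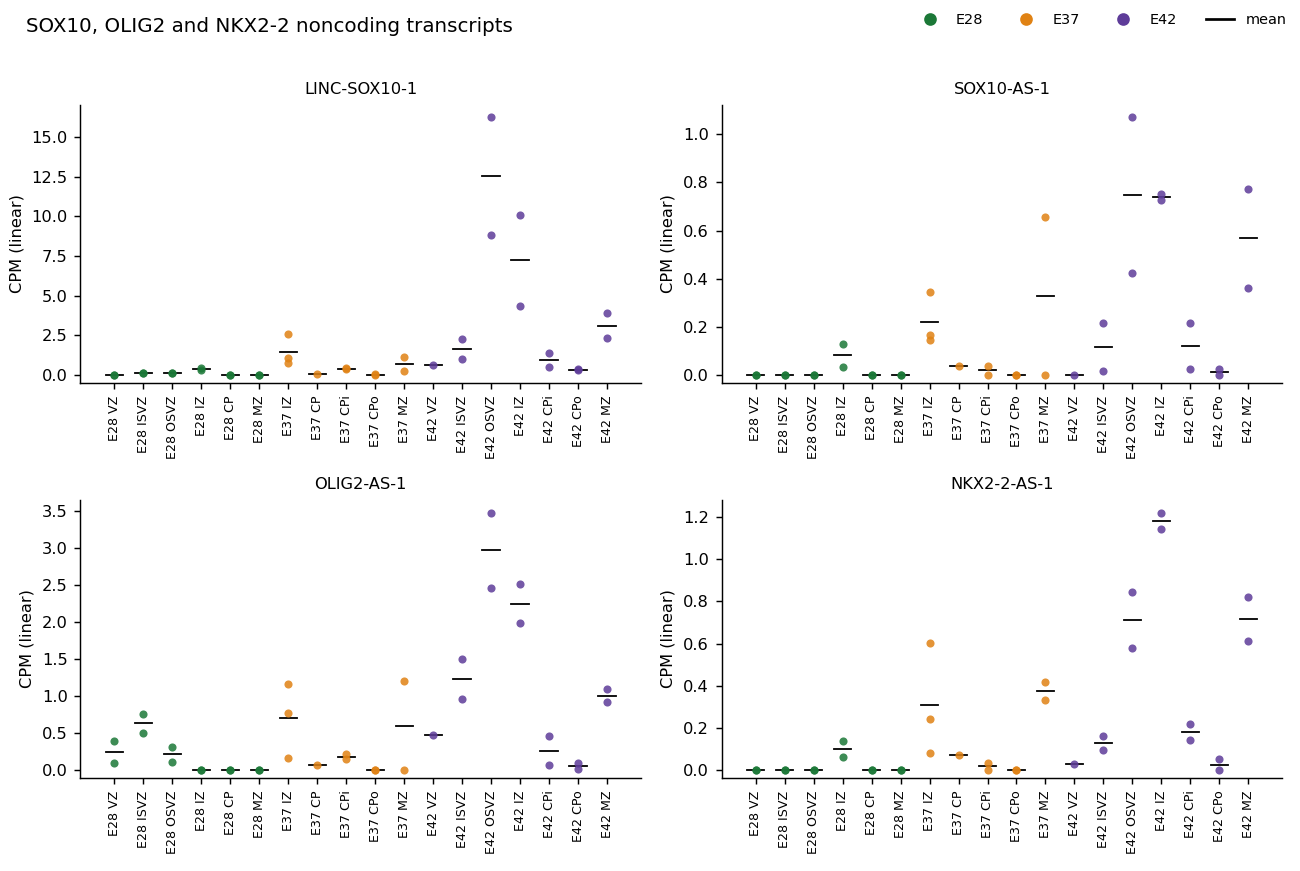
CPM on a linear axis for LINC-SOX10-1, SOX10-AS-1, OLIG2-AS-1 and NKX2-2-AS-1 in each library (points) with the group mean (bar), over 18 layers and stages, coloured by embryonic day. Each panel has its own scale. All 4 are highest in the E42 OSVZ or IZ, and LINC-SOX10-1 is at most 0.451 CPM at E28.

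Of the 7 tested transcripts of SOX1, 1 was higher in the MZ than in the IZ and CP at E28, 3 at E37 and 3 at E42. Of the 6 of SOX5, 2 were lower in the MZ at E37 and 0 at E28 and E42, and LINC-SOX11-14 was lower at E37 and E42. At E28 2 of 44 differed, beside 7.94% of all features and 3.97% in that direction: LINC-SOX1-7 at 2.12 and 2.03 CPM in the MZ against 0.369 to 1.06 (3.44-fold, adjusted p = 0.0260), and LINC-SOX2-3 (3.52-fold, adjusted p = 0.0315). With the replicate block 5 were called, adding LINC-SOX4-6 as higher (adjusted p = 0.0207, 0.0685 without the block) and SOX5-AS-6 (0.0108, 0.124 without it) and SOX5-AS-7 (0.0347, 0.0533 without it) as lower. LINC-SOX1-7 was lost without any of 5 of the 6 libraries (adjusted p = 0.0561 to 0.0979) and LINC-SOX2-3 without any of 4 (0.0507 to 0.601). With only the E28 libraries of these layers in the fit neither was called (0.235 and 0.423).

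At E37 8 differed, beside 16.1% of all features and 5.50% of those without a TSDBGID identifier, 5 of them higher in the MZ, beside 9.64%, and 3 lower, beside 6.45%. LINC-SOX1-1 lay at 2.06 and 1.39 CPM in the MZ against 0.0897 to 1.08 in the IZ and plate (2.87-fold, log2 difference 1.93, SE 0.40, adjusted p = 0.00122), without overlap, and it was the 1 call kept without each library. LINC-SOX11-14 was 5.01-fold lower in the MZ (adjusted p = 0.00577). SOX5-AS-6 had no count in the MZ against 296 in the 8 IZ and plate libraries (adjusted p = 0.00362), and SOX5-AS-7 had 3 against 168 (adjusted p = 0.0260). LINC-SOX1-3 (3.65-fold) and LINC-SOX1-7 (2.50-fold) were higher. Fitting only the libraries compared lost LINC-SOX1-7 (0.0990), LINC-SOX2-6 (0.0898) and SOX6-AS-2 (0.0664). LINC-SOX2-6 rested on 9 counts and SOX6-AS-2, which falls outside the naming rule, on 12, each in a single MZ library, and neither was called with the replicate block (adjusted p = 1 for both). SOX6-AS-2 reached the level of the low-count filter in 1 E37 MZ library alone. It was thus tested only because it was high there, and its call carries no weight. It is still counted among the 8 and the 5 higher here and the 31 above. Without MZ replicate 2 the calls of LINC-SOX1-3 (0.150), LINC-SOX1-7 (0.251), LINC-SOX11-14 (0.0773) and LINC-SOX2-6 (1) were lost, and without MZ replicate 3 those of LINC-SOX11-14 (0.0742), SOX5-AS-6 (0.110), SOX5-AS-7 (0.400) and SOX6-AS-2 (1). LINC-SOX1-7 was also lost without CP replicate 1 (0.0536).

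At E42 6 differed, beside 8.6% of all features, 5 of them higher in the MZ, beside 6.19%, and 1 lower, beside 2.41%. LINC-SOX1-7 lay at 2.30 and 1.59 CPM in the MZ against 0.0482 to 1.40 in the IZ, CPi and CPo (2.83-fold, log2 difference 2.40, SE 0.48, adjusted p = 0.0012) and kept its call without each library. LINC-SOX1-1 (2.02-fold, adjusted p = 0.00709), LINC-SOX9-15 (2.76-fold, 0.00569), LINC-SOX1-3 (2.55-fold, 0.0284) and LINC-SOX2-3 (2.11-fold, 0.0492) were higher, and LINC-SOX11-14 6.17-fold lower (0.00986). Without MZ replicate 1 the adjusted p was 0.194 for LINC-SOX1-1, 0.142 for LINC-SOX1-3, 0.845 for LINC-SOX2-3 and 0.0927 for LINC-SOX11-14. Without MZ replicate 2 it was 0.117 for LINC-SOX9-15, 0.191 for LINC-SOX1-3 and 0.184 for LINC-SOX11-14. LINC-SOX1-3 and LINC-SOX2-3 were also lost without any of 4 and 6 other libraries.

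Transcripts that passed the test between IZ and CP were higher in the IZ at each stage. At E28 3 of 44 differed, beside 5.45% of all features, and 3.75% in that direction: LINC-SOX10-1, LINC-SOX1-1 with 43 counts against 1, and LINC-SOX9-15 with 29 against 2. With the block SOX9-AS-1 was called higher (adjusted p = 0.0219, 0.0721 without it) and LINC-SOX11-14 lower in the IZ (0.0209, 0.128 without it). LINC-SOX9-15 was lost without CP replicate 2 (0.384) or IZ replicate 1 (0.239). With only the libraries compared in the fit none of the 3 was called (adjusted p = 0.0692 for LINC-SOX1-1, 0.162 for LINC-SOX10-1 and 0.358 for LINC-SOX9-15). At E37 4 differed, beside 3.85%, and 2.60% in that direction: LINC-SOX1-1 (4.74-fold, adjusted p = 0.00144), LINC-SOX10-1, LINC-SOX9-15 (4.37-fold, 0.0195) and LINC-SOX1-7 (3.25-fold, 0.0114). LINC-SOX2-3 was called with the block only (0.0398, 0.0572 without it). Without IZ replicate 2 the adjusted p of LINC-SOX9-15 was 0.160, and it was also lost without either CPo library (0.0625 and 0.0501), while LINC-SOX1-7 was lost without CP replicate 1 (0.129) or IZ replicate 3 (0.102). Both were also lost with only the libraries compared in the fit (0.138 and 0.128).

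At E42 8 differed between IZ and CP, beside 11.9% of all features, and 6.66% in that direction. They were 3 transcripts of SOX1, 2 of SOX2, 2 of SOX10 and LINC-SOX9-15. None of the 8 overlapped between the 2 IZ and the 4 plate libraries. The share of all features without overlap was not counted, so nothing is drawn from this. LINC-SOX2-2 lay at 3.43 and 2.34 CPM in the IZ against 0.120 to 0.334 in the plate (10.7-fold, log2 difference 3.42, SE 0.72, adjusted p = 0.00229), and LINC-SOX1-7 at 1.40 and 1.12 against 0.0482 to 0.302 (10.6-fold, log2 difference 3.53, SE 0.57, adjusted p = 7.46e-05). LINC-SOX2-3 (7.25-fold), LINC-SOX9-15 (7.06-fold), LINC-SOX1-1 (6.18-fold) and LINC-SOX1-3 (5.80-fold) followed. LINC-SOX1-3 was lost without IZ replicate 2 (adjusted p = 0.0555) and LINC-SOX2-3 without IZ replicate 1 (0.0993).

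In the subventricular zones 10 of 44 differed between E42 and E28, a share of 22.7% that was near the 22.2% of all features and above the 8.1% of those without a TSDBGID identifier. Of these, 8 were higher at E42, beside 12.5% of all features and 6.78% of those without such an identifier, and 2 lower, beside 9.64% and 1.32%, the latter being LINC-SOX11-20 and LINC-SOX11-22. Besides the SOX10 transcripts, LINC-SOX1-5 rose from 0.055 to 0.324 CPM to 1.01 to 2.28 CPM (10.0-fold, log2 difference 3.58, SE 0.83, adjusted p = 0.00191) and LINC-SOX4-6 from 0.0721 to 0.358 CPM to 0.503 to 1.33 CPM (5.05-fold, log2 difference 2.45, SE 0.51, adjusted p = 7.27e-04). LINC-SOX11-14 had 2 counts at E28 and 53 at E42 (adjusted p = 9.69e-04). LINC-SOX17-9 (2.45-fold), LINC-SOX1-7 (2.28-fold) and SOX9-AS-1 (1.79-fold) rose less. LINC-SOX17-9 was lost without E28 ISVZ replicate 1 (adjusted p = 0.0740), E42 ISVZ replicate 1 (0.0596) or E42 OSVZ replicate 2 (0.168), SOX9-AS-1 without E28 ISVZ replicate 1 (0.0558) or E28 OSVZ replicate 2 (0.0518), and LINC-SOX1-7 without any of 4 libraries (0.106 to 0.162). The medians were 0.79 over the 44 and 0.18 over all features on the log2 scale.

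In the neuron-rich layers 9 of 44 differed between E37 and E28, beside 22.4% of all features, with 5 higher at E37, beside 12.0%, and 4 lower, beside 10.4%. LINC-SOX1-1 (2.63-fold), SOX9-AS-1 (2.63-fold), LINC-SOX11-14 (3.85-fold), LINC-SOX9-15 (3.26-fold) and LINC-SOX10-1 rose, and SOX5-AS-7 (3.50-fold), LINC-SOX1-7 (2.19-fold), SOX5-AS-6 and SOX5-AS-8 fell. SOX5-AS-8 had 57 counts at E28 and 19 at E37. LINC-SOX9-15 could not be called without E37 CPi replicate 2, since the other CPi library had no count, and SOX5-AS-8 could not without E28 MZ replicate 1 for the same reason. SOX5-AS-6 was lost without any of 5 libraries (adjusted p = 0.0557 to 1). SOX5-AS-1 was called lower with the replicate block only (adjusted p = 0.0416, 0.0744 without it).

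Between E42 and E37 9 differed in the neuron-rich layers, beside 15.6% of all features, and 6 rose, beside 10.3%: LINC-SOX1-1 (2.02-fold), LINC-SOX1-2 (5.20-fold), LINC-SOX1-3 (3.53-fold), LINC-SOX1-5 (3.56-fold), LINC-SOX9-15 (3.38-fold) and LINC-SOX10-1. LINC-SOX17-9 fell 1.78-fold, besides LINC-SOX11-20 and LINC-SOX11-22, so that 3 fell, beside 5.30%. LINC-SOX17-9 was lost without any of 7 libraries (adjusted p = 0.0504 to 0.121). LINC-SOX1-5 was lost without E37 MZ replicate 3 (0.0867), E42 IZ replicate 2 (0.0700) or E42 MZ replicate 1 (0.0813).

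Between E42 and E28 16 of 44 differed in the neuron-rich layers, beside 27.3% of all features and 11.3% of those without a TSDBGID identifier: 12 rose, beside 17.1% and 7.09%, and 4 fell, beside 10.2% and 4.18%. LINC-SOX1-1 rose 5.32-fold from a mean of 0.370 to 1.97 CPM (log2 difference 2.98, SE 0.39, adjusted p = 6.16e-07), LINC-SOX9-15 11.0-fold from 0.173 to 1.91 CPM (adjusted p = 2.89e-07) and SOX9-AS-1 4.69-fold from 0.895 to 4.20 CPM (log2 difference 2.29, SE 0.33, adjusted p = 3.82e-06). LINC-SOX1-5 and LINC-SOX2-1 rose from 2 and 1 counts to 145 and 148. LINC-SOX11-14 (2.98-fold), LINC-SOX1-3 (2.70-fold) and LINC-SOX2-3 (2.55-fold) rose, as did LINC-SOX2-4 from 2 to 65 counts and LINC-SOX1-6 from 0 to 47. The E42 counts come from more libraries and greater depth. E42 MZ replicate 1 alone held 67 of LINC-SOX1-5, 75 of LINC-SOX2-1, 26 of LINC-SOX2-4 and 33 of LINC-SOX1-6. In that order, the highest neuron-rich library was at 0.0322, 0.0410, 0.0345 and 0 CPM at E28. At E42 it was at 0.782, 0.718, 0.290 and 0.316 CPM. SOX5-AS-6 (2.64-fold) and SOX5-AS-7 (3.14-fold) fell, with LINC-SOX11-20 and LINC-SOX11-22. Of these, LINC-SOX1-3 was lost without any of 9 libraries (adjusted p = 0.0509 to 0.0909), LINC-SOX1-6 without any of 10 (0.0655 to 1), and SOX5-AS-6 without any of 10 (0.0505 to 0.773), its log2 change being 0.53 without E28 MZ replicate 1. SOX5-AS-7 was lost without any of 4 (0.0558 to 0.102) and LINC-SOX2-3 without E28 CP replicate 1 (0.0549) or E42 MZ replicate 1 (0.0977).

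The changes from E28 to E42 differed between the subventricular zones and the neuron-rich layers for 4 of 44 transcripts, beside 10.4% of all features and 2.88% of those without a TSDBGID identifier. The difference of the 2 log2 changes was negative for LINC-SOX1-1 (-2.46, SE 0.53, adjusted p = 0.00233) and LINC-SOX9-15 (adjusted p = 4.45e-04), beside 6.27% of all features. Both rose in the neuron-rich layers, and neither was called between E42 and E28 in the subventricular zones. The difference was positive for LINC-SOX17-9 (2.11, SE 0.50, adjusted p = 0.0053) and LINC-SOX1-7 (1.70, SE 0.55, adjusted p = 0.0452), beside 4.12%. LINC-SOX1-7 was lost without any of 16 of the 22 libraries (adjusted p = 0.0508 to 0.144).

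For comparison, a list of 39 other genes with known places beside SOX factors or as markers of the cell types above was searched for noncoding transcripts. It held 213 such features for 35 genes, of which 72 were tested. Its features belong mostly to progenitor genes, and the members were chosen with earlier results of these data known. At E28 27 of the 72 differed between germinal and neuron-rich layers, beside 35.7% of all features. In the germinal layers 21 were higher, beside 18.5%, and 6 lower, beside 17.1%. At E42 19 differed, beside 30.1%, 14 higher, beside 15.6%, and 5 lower, beside 14.4%. Of the 38 tested transcripts of progenitor genes, 17 were higher and 1 lower at E28, and 14 higher and 1 lower at E42. Most of the higher ones at either stage carry the name of POU3F3 and may be pieces of 1 locus. NES-AS-1, named after the progenitor filament nestin, lay at 3.19 and 3.41 CPM in the E28 VZ and 0.207 to 0.697 in the neuron-rich libraries. LINC-NEUROD2-1, LINC-NFIB-3 and AQP4-AS-1, named after a neuronal factor, a factor of late progenitors and an astrocyte water channel, were also among those called in most comparisons. Between E42 and E28 8 of the 72 differed in the subventricular zones, beside 22.2%, 6 higher, beside 12.5%, and 2 lower, beside 9.64%. In the neuron-rich layers 15 differed, beside 27.3%, 11 higher, beside 17.1%, and 4 lower, beside 10.2%.

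**Figure D5:**
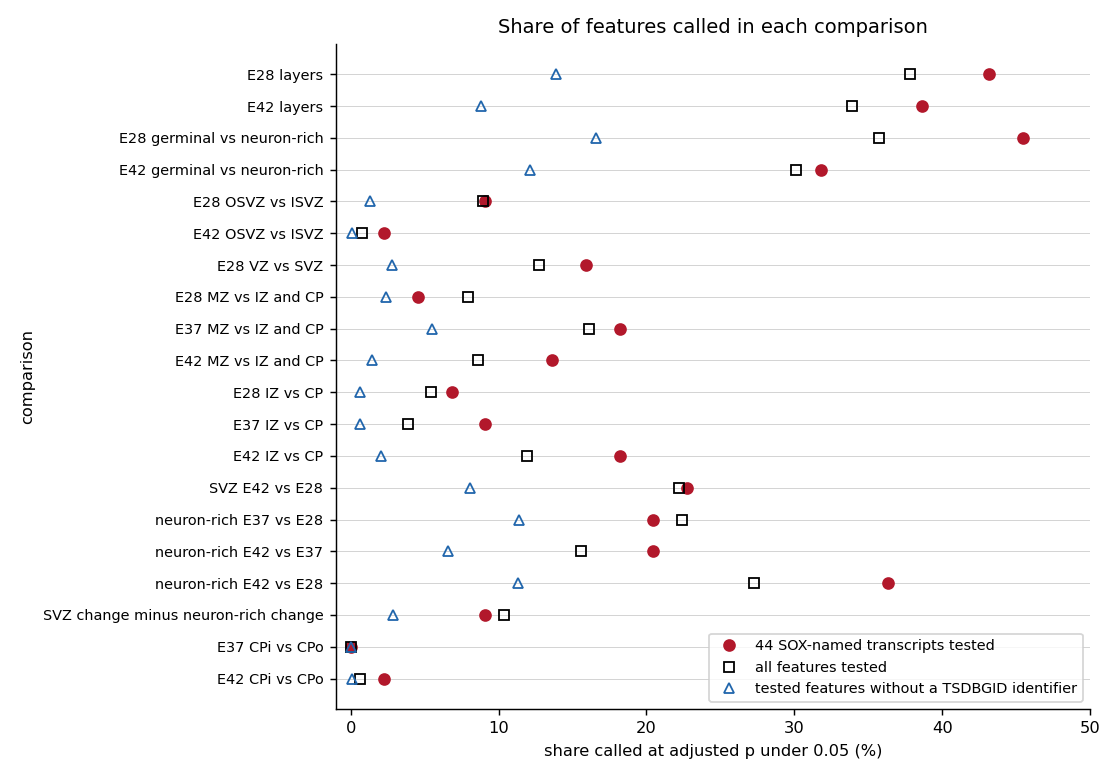
Percent of features called (adjusted p under 0.05) in each of the comparisons, for the 44 tested noncoding transcripts named after SOX genes, for all 26858 features tested and for the 10947 tested features without a TSDBGID identifier. The SOX-named transcripts are called at 45.5% in the E28 comparison of germinal with neuron-rich layers, beside 35.7% and 16.6%.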

How the data were processed

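RNA was measured in laser-captured layers of the fetal cortex, and the deposited files hold raw counts per feature for each library. The authors trimmed adapters, aligned reads to the tree shrew genome with HISAT, and took read counts with HTSeq-count over TS_3.0 gene models. Per the labels HISAT2, SAMtools and HTSeq were used. The strand setting is not given in the sources used here. Reads that HTSeq left ambiguous (15.0 to 19.1% per library) or without a feature (8.56 to 14.0%) were kept out of library sizes.

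The counts of 35 libraries were tested with edgeR 4.0.16 in R 4.3.3, as a quasi-likelihood model with 1 mean for each of 18 layers and stages (17 residual degrees of freedom), TMM scaling (factors 0.881 to 1.13) and a filter at a minimum count of 10, which kept 26858 features. The model held no term for the replicate number, so the pairing of libraries described below was left out of the reported tests and shares. Calls that changed with such a term as a block are given apart. P-values were adjusted by Benjamini-Hochberg over all features tested, at 0.05. The study used DESeq2, here an alternative (version 1.42.0). CPM values are per 1000000 counts on features after TMM scaling. Folds and ratios are of mean CPM. Log2 differences, SE and p-values come from the fitted model, which averages layers on the log scale. A fold and the log2 difference beside it therefore need not match, and the SE and p belong to the log2 difference. Germinal layers were compared as the mean of VZ, ISVZ and OSVZ, neuron-rich layers as the mean of IZ, CP and MZ, and all plate libraries of a stage formed its CP. Where a layer had no count, the fitted fold depends on the prior count (2 for log2 CPM), so levels or bounds against 3 counts are given. The 18 pairs of libraries of 1 group differed by 29.7 to 92.4 times the sampling noise (chi-square per degree of freedom). Fits that left out 1 library kept the trended dispersions of the fit with 35.

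Replicate numbers come from the labels. Deviations of same-numbered libraries correlated at over 0.1 in each of 15 layer pairs of E28 (r between 0.167 and 0.265) and each of 6 of E37 (0.129 and 0.272). At E42 the correlation exceeded 0.1 for 10 of 15 layer pairs (range -0.117 to 0.232). Each pair that did not held the OSVZ (-0.117 to 0.062), while pairs of the other layers lay at 0.130 to 0.232. The numbers were therefore taken to pair libraries at E28, at E37 and at E42 outside the OSVZ, but not in the E42 OSVZ.

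Named transcripts are those called in at least 1 comparison, at most 30, the most often called first, together with LINC-SOX10-1, and those of highest total count among the rest. Others named were chosen after their values were seen, as stated. The members and lists were chosen with earlier results of these data known. The script that fits the model was tested on simulated data. A further transcript of the other genes, which the naming rule selects, is not reported here.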

Additional observations from a re-analysis of the deposited data

Results flagged for a closer look

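For 4 transcripts the change from E28 to E42 differed between the subventricular zones and the neuron-rich layers in a test of that difference (edgeR, adjusted over all features tested), given as the subventricular minus the neuron-rich log2 change. It was -2.458 for LINC-SOX1-1 (SE 0.533, adjusted p = 0.00233), whose subventricular range was 1.74 to 12.3 CPM at E28 and 4.25 to 9.26 at E42. It was -4.398 for LINC-SOX9-15 (SE 0.806, adjusted p = 4.45e-04), a size that depends on the prior count since the E28 MZ had no count. For LINC-SOX17-9 it was 2.111 (SE 0.501, adjusted p = 0.0053), with means of 0.472 and 1.16 CPM in the subventricular zones and 2.37 and 1.40 in the neuron-rich layers. For LINC-SOX1-7 it was 1.7 (SE 0.551, adjusted p = 0.0452). No group held more than 3 libraries, so single libraries were not tested against the rest of their group.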

How the results depend on the processing

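Of 162 calls of a transcript in a comparison, 87 were kept under each alternative run and 120 under each that left out no library, and 75 were lost under at least 1. The number of transcripts called stayed within 1.5 times the reported one under DESeq2 size factors and the stricter filter. Fitting only the libraries compared gave 11 among the E28 layers, 4 for E42 OSVZ against ISVZ, 4 for E28 VZ against the subventricular zones, 0 for the E28 MZ, 5 for the E37 MZ, 11 for the E42 MZ, 0 for E28 IZ against CP, 2 for E37 IZ against CP and 4 for E42 CPi against CPo. With DESeq2 4 were called for the E28 MZ, 5 for E28 IZ against CP, 14 for neuron-rich E37 against E28 and 2 for E42 CPi against CPo. With no filter on low counts these were 4 for the E28 MZ, 6 for E28 IZ against CP and 7 for E37 IZ against CP. With E42 VZ replicate 2 kept, 0 were called for E42 OSVZ against ISVZ. With the replicate number as a block 5 were called for the E28 MZ and 5 for E28 IZ against CP. The causes were not tested.

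Leaving out 1 library at a time, the number of transcripts called ranged from 17 to 20 among the E28 layers, 13 to 16 among the E42 layers, 15 to 20 and 11 to 18 for germinal against neuron-rich layers at E28 and E42, 0 to 3 and 0 to 0 for OSVZ against ISVZ, and 2 to 6 for the E28 VZ. For the MZ it ranged from 0 to 3 at E28, 4 to 11 at E37 and 2 to 5 at E42, and for IZ against CP from 1 to 4, 3 to 5 and 6 to 8. It was 0 for E42 CPi against CPo throughout. LINC-SOX2-6 in the E37 MZ ranged from -1.07 to 6.08 on the log2 scale, the former without MZ replicate 2, and SOX5-AS-6 in the neuron-rich layers of E42 against E28 from -3.15 to 0.53, the latter without E28 MZ replicate 1 (adjusted p = 0.773).

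At E42 the numbers were taken to pair libraries outside the OSVZ only. Changes that the block makes in comparisons with E42 libraries are therefore listed here. The block would add LINC-SOX11-20 among the E42 layers (adjusted p = 0.00253) and in the E42 germinal layers (0.0319), where LINC-SOX11-22 would be lost (0.0521). It would add LINC-SOX2-2 (0.00591), SOX5-AS-6 (0.00616) and SOX9-AS-1 (0.0338) in the E42 MZ, and LINC-SOX1-5 (0.0262), LINC-SOX11-20 (0.0351) and SOX9-AS-1 (0.0473) in E42 IZ against CP. Between E42 and E28 it would add LINC-SOX1-3 (0.00678), LINC-SOX2-1 (0.0366), LINC-SOX2-2 (0.00721) and LINC-SOX2-7 (0.0322) in the subventricular zones, LINC-SOX17-9 (0.0229) and LINC-SOX4-6 (0.0456) in the neuron-rich layers, where LINC-SOX1-6 would be lost (0.0533), and LINC-SOX11-14 (0.0106) and LINC-SOX4-6 (0.0291) in the difference of changes. Between E42 and E37 it would add LINC-SOX1-7 (0.0255), LINC-SOX11-29 (0.0297), LINC-SOX4-1 (0.0207) and SOX5-AS-8 (0.0339). The block changed 22 calls in comparisons that hold E42 libraries and 16 in the others, which stand beside the results, and it changed no other call.

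Over all features, counts of calls moved by more than 1.5 times for E42 OSVZ against ISVZ (208, and 116 to 1135 under the alternatives), E28 OSVZ against ISVZ (2400, 3819 with the block), the E28 MZ (2133, 434 to 3950), the E42 MZ (2310, 3924 with the block, 5164 with only the libraries compared), E28 IZ against CP (1464, 2269 with DESeq2, 2661 with the block), E37 IZ against CP (1033, 1614 to 2290), E42 IZ against CP (3190, 5039 with the block, 6987 with only the libraries compared), the difference of changes (2792, 4680 with the block) and CPi against CPo (5 at E37, 3 to 65; 176 at E42, 106 to 1776).

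Depth limits the low transcripts: 3 counts came to 0.0294 to 0.167 CPM. CPM on plain sums moved 87 of 558 levels, by at most 12.6%, and a prior count of 0.5 moved 180 of 558.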
